A study of Drosophila melanogaster with 3 samples.

Results

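In the Drosophila genome many protein-coding genes lie head to head: their transcription starts sit back to back on opposite strands, and a short stretch of DNA between them serves both promoters. Here 1127 of 4371 peaks of the transcription factor Myc (25.8%) lay at such divergent pairs. A peak was counted when its summit was within 500 bp of starts of at least 2 protein-coding genes, 1 or more on each strand, with the minus-strand start to the left of the plus-strand start. Only the annotation and the summit position chose these peaks, not their signal. They were compared with 1804 promoter peaks whose summit reached a single gene. Another 60 promoter peaks reached several genes that were not head to head, and 1380 summits lay outside promoters.

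The study mapped Myc by chromatin immunoprecipitation and sequencing in whole embryos of both sexes, aged 0 to 16 h, in 3 biological replicates that form 1 group. The flies carry a stable transgene coding for Myc (fly gene dm) fused to green fluorescent protein (GFP) at its C terminus, and an anti-GFP antibody was used on sonicated chromatin of 200 to 800 bp. What drives the transgene is not given in the sources used here, and control samples were not analysed. Whole embryos mix many cell types, so a peak that is strong in few cells cannot be told apart from one that is weak in many.

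The 4371 peaks passed the authors' irreproducible discovery rate (IDR) step, which retains peaks whose ranks repeat between replicates, and 2991 of them (68.4%) had a summit in a promoter. Each replicate also had a relaxed list of 25842 to 29853 peaks, and the 4371 strongest of each are called its top list here. The signal of a peak is the authors' own score, with no fixed scale. Relative signal is therefore that score divided by its median over the IDR peaks found in the same replicate, so that 1 is a typical IDR peak. The lists hold no read counts, and the depth of the libraries is unknown.

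Myc binds DNA as a dimer with Max, through a basic helix-loop-helix leucine zipper, and its canonical site is the palindromic E-box CACGTG. It is best known in flies as a driver of growth, through genes for ribosome assembly, ribosomal proteins and translation. Divergent promoters of housekeeping genes in flies often carry TATCGATA, the DNA replication-related element (DRE) bound by DREF, or Motif 1, GGTCACAC, bound by M1BP. Promoters of developmental genes more often carry GAGA repeats.

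The DNA of strong pairs shows where these motifs lie. First come the bases strictly between the starts of 4 of the strongest pairs that hold CACGTG there, from gaps of 30 to 300 bp, in the dm6 genome (BDGP6), plus strand, with CACGTG and TATCGATA in capitals. Ltn1/CG9300 is chr3L:19552291-19552419, Fkbp39/Cyfip is chr3R:15333134-15333265, CG9281/CG15601 is chrX:15710540-15710646 and CG4318/CG4332 is chrX:13154925-13155037.
Ltn1/CG9300: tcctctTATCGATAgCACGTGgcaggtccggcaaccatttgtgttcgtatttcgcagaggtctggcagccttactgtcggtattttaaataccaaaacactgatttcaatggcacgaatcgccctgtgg
Fkbp39/Cyfip: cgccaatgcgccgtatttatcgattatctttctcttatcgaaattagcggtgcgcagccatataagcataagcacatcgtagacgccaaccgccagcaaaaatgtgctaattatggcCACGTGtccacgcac
CG9281/CG15601: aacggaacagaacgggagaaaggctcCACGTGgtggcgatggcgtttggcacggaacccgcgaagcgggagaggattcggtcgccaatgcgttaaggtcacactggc
CG4318/CG4332: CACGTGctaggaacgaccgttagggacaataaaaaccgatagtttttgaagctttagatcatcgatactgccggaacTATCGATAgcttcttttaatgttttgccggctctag

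In these gaps the E-box sat near 1 end, beside a start, and 2 of the 4 gaps also held TATCGATA. The gap of CG9281/CG15601 also held GGTCACAC. Relative signal at Ltn1/CG9300, where Ltn1 codes for the ribosome quality-control ligase Listerin, was 6.55, 6.29 and 4.14 in replicates 1, 2 and 3. Its E-box lay 63.5 bp from the summit, and the one of Fkbp39/Cyfip 134.5 bp, against 21.5 bp at CG9281/CG15601 and 13.5 bp at CG4318/CG4332. A CACGTG between the starts was rare: of all 1172 head-to-head pairs with a gap of that size, 19 (1.62%) held one, whereas 175 (14.9%) held TATCGATA.

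Strong pairs with TATCGATA but no CACGTG between the starts, and strong pairs with neither, show the commoner case. Atat/Shc is chr3L:9426759-9427009, eIF3a/CG1074 is chr3R:4433896-4433964, RpL24-like/CG5276 is chr3R:11431583-11431737, Art3/mRpS10 is chr3R:15229409-15229664 and Ripalpha/RpL7 is chr2L:10200975-10201003, all dm6, plus strand.
Atat/Shc: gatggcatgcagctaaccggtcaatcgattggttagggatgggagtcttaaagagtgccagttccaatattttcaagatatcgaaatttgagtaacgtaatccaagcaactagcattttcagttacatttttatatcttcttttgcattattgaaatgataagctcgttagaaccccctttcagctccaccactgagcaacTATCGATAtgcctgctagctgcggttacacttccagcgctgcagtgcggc
eIF3a/CG1074: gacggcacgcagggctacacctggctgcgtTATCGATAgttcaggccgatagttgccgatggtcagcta
RpL24-like/CG5276: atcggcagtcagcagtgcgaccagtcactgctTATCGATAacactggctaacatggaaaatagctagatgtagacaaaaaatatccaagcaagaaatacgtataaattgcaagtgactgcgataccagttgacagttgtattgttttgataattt
Art3/mRpS10: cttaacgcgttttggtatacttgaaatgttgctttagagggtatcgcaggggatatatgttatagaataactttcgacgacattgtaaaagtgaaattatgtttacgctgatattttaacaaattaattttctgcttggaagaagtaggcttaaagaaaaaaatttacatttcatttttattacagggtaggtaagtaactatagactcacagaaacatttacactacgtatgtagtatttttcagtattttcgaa
Ripalpha/RpL7: cccactccgcggccagtgtgaccgtttgg

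The summit lay 1.5 bp from the centre of TATCGATA in the short gap of eIF3a/CG1074, which is 69 bases long, and 56.5 bp from it at Atat/Shc. The gap of Art3/mRpS10, at the second strongest head-to-head peak, is 30.1% G and C and held neither word. The gap of Ripalpha/RpL7 is only 29 bases long and held GGTCACAC on the minus strand.

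At the strongest head-to-head peaks with an E-box, CACGTG more often lay inside a transcript, in the 5′ untranslated region (UTR). As examples, 4 of the strongest such sites are printed as 30 bases in the direction of the transcript, with CACGTG in capitals, named by the gene whose UTR holds the site. This set was chosen after the values were seen. Their dm6 positions are chr2L:10201008-10201037 (plus strand) for RpL7, chr3R:11431534-11431563 (minus) for RpL24-like, chr3R:22421023-22421052 (minus) for Nop56 and chr2L:14355039-14355068 (minus) for l(2)34Fd.
RpL7: tggcgcgcgtgtCACGTGtgcacgcatttc
RpL24-like: tcttcagcagcaCACGTGctagcagcttgc
Nop56: acttgaagtaagCACGTGggaaaacaactg
l(2)34Fd: cgatagagggcgCACGTGttgcggacttcg

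The first base of CACGTG lay 16 bp downstream of the start in RpL7, 31 bp in RpL24-like, 28 bp in Nop56 and 29 bp in l(2)34Fd, so the last 3 sites were almost in register. RpL7 codes for a protein of the large ribosomal subunit, and its shared peak with Ripalpha had a relative signal of 10.2, 7.54 and 7.77 in replicates 1 to 3. Nop56, a core protein of box C/D nucleolar particles, shares its peak with mats, a co-activator of Hippo pathway kinases, and had 4.32, 5.59 and 2.84. Replicate 1 was the highest at RpL7 and replicate 3 the lowest at Nop56.

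The 1127 peaks belonged to 985 gene pairs with 1963 genes. Most, 1072, reached exactly 2 genes, and 55 reached 3 or more. They made up 37.7% of promoter peaks (95% Wilson interval 36.0 to 39.4%, which covers counting error only), and 36.4%, 35.2% and 38.8% in the top lists of replicates 1, 2 and 3 (mean 36.8 ± 1.83%, SD, n = 3). Every major arm carried them, from 22.1% of the peaks on X to 28.3% on 3R, and 4 lay on chromosome 4. Of the 3619 genes bound by Myc in these data, 54.2% were in these pairs. Of all protein-coding genes, 36.2% had a head-to-head partner within 1000 bp. By the rule each head-to-head peak counts for at least 2 genes and a single-gene peak for 1, which raises the share of bound genes in pairs. At the edge of the 500 bp rule, unc/CG15445 was kept with its farther start 500 bp from the summit (signal 182), as was Acbp1/Piezo at 498 bp (450). The pairs fs(2)ltoPP43/sick (129) and tank/CG12194 (776) fell outside at 502 bp.

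Genes in divergent pairs were bound far more often than lone genes. In the annotation, 5052 protein-coding genes (36.2%) had a head-to-head partner start within 1000 bp, and 7960 had no other coding start in that distance. A summit lay within 500 bp of a start for 2391 of the paired genes (47.3%) and 1096 of the lone genes (13.8%), where 26.0% of all protein-coding genes were bound. In the 3 top lists the share was 47.6%, 44.1% and 45.5% of paired genes, against 14.4%, 13.5% and 12.4% of lone genes. The difference of 32.3 ± 1.44 percentage points (SD, n = 3) had the same direction in 3 of 3 replicates. The exact two-sided sign-flip permutation test gave p = 0.25, which is the smallest p that 3 replicates allow. A summit between 2 starts counts for both genes here. When each peak was given to its nearest start alone, 29.97% of paired genes and 13.8% of lone genes were bound.

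The bound share depended on how far apart the starts were. Of genes whose mutually nearest partner started 1 to 100 bp away, 501 of 812 (61.7%) were bound, and the top lists gave 59.4 ± 3.84% (SD, n = 3). The share was 52.4% at 101 to 200 bp, 58.1% at 201 to 300 bp, 50% at 301 to 400 bp and 30.4% at 401 to 1000 bp. Each of these was above the share of lone genes in every top list. At a pair level, 969 of 2412 mutually nearest pairs (40.2%) had a summit within reach of both starts, and 1148 had neither gene bound.

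**Figure D1:**
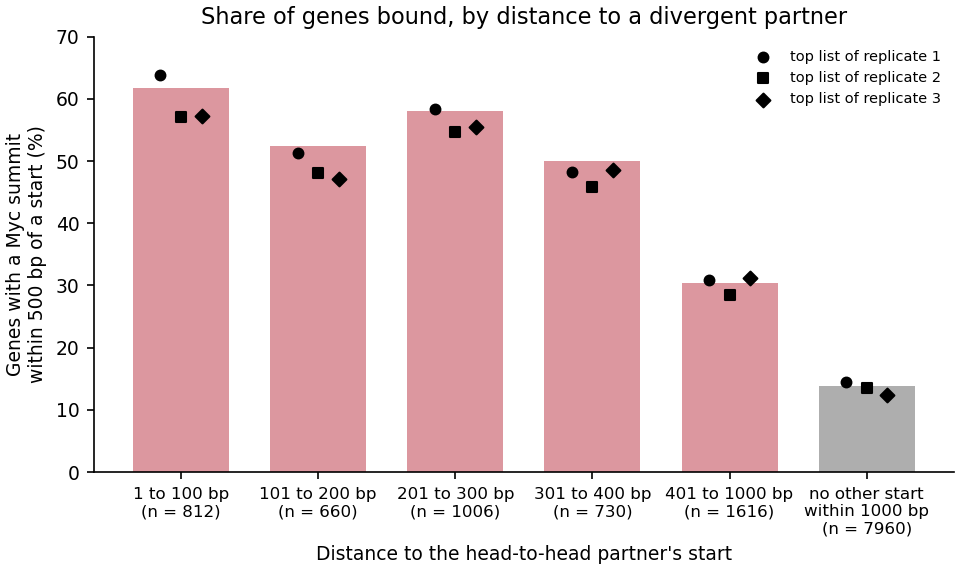
Share of protein-coding genes with a Myc summit within 500 bp of a start, by the distance to the start of the head-to-head partner, and at the right for genes with no other coding start within 1000 bp. Bars are the IDR list and points the top lists of the 3 replicates; the bars stand at 61.7%, 52.4%, 58.1%, 50% and 30.4% for paired genes and at 13.8% for lone genes.

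Most summits lay between the starts. The starts were a median of 251 bp apart (quartiles 122 and 333.5 bp, range 1 to 783 bp), and 779 of 1127 summits (69.1%, interval 66.4 to 71.8%) lay between them. The rule itself allows 36.6% of positions to be there, if every allowed position counts alike. Summits cluster near starts, however. Of single-gene summits, 58.4% (interval 56.1 to 60.6%) lay upstream of their nearest start, the side on which a head-to-head partner lies. At head-to-head peaks the share between the starts was 65.2%, 60.2% and 73.1% in the 3 top lists (mean 66.1 ± 6.50%, SD, n = 3). The lowest share was in replicate 2 and the highest in replicate 3. At gaps of 1 to 100 bp, 38.2% of summits were between the starts where 6.28% of allowed positions are, and at 401 to 1000 bp 89.9% were, where 87.9% are. The share was above the allowed one at every gap size, but at 401 to 1000 bp its interval (84.0 to 93.8%) took in the allowed one. For each summit the 2 starts with the smallest summed distance were used, a choice that favours starts on either side of it. The allowed share takes those starts as given. With only the outermost start of each gene, 62.7% of summits lay between the starts.

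The summit lay a median of 45 bp from the nearer start and 204 bp from the farther one. The rule used these distances, so they are a description. The minus-strand start was the nearer in 511 peaks, the plus-strand start in 614, and both were equally near in 2. At pairs 200 bp or more apart, 174 of 585 summits between the starts (29.7%, interval 26.2 to 33.6%) fell in the central part when the gap was cut into 3 equal parts, and an even spread would give 33.3%, which is inside that interval. The nearer start was the same in all 3 replicates for 785 of 973 peaks found in every relaxed list (80.7%), and for 85.8% of those with starts 200 bp or more apart.

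**Figure D2:**
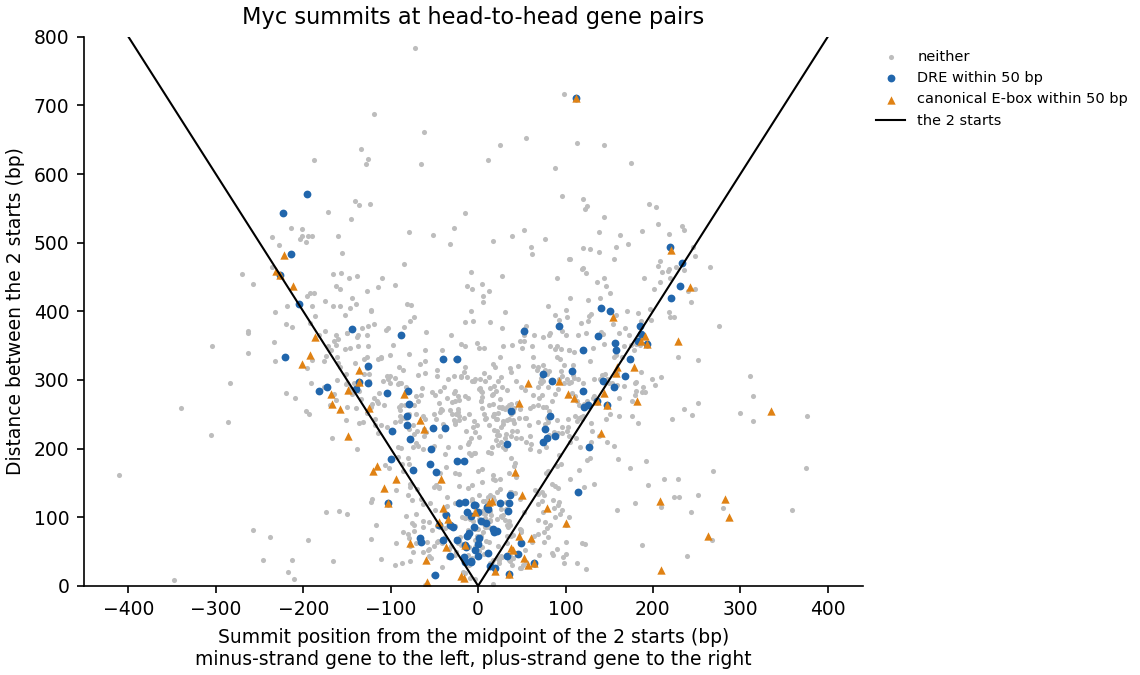
Summit position from the midpoint of the 2 starts (horizontal, bp) against the distance between the starts (vertical, bp) for the 1127 head-to-head peaks. Black lines mark the 2 starts, blue points have a DRE (TATCGATA) and orange triangles a canonical E-box (CACGTG) within 50 bp of the summit. Between the lines lie 779 summits. Triangles lie near the lines, outside them or, as at CG9281/CG15601, well between them.

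Some divergent pairs carried a second peak. There were 2 peaks at 142 of 985 pairs (14.4%, interval 12.4 to 16.7%), and 2 or more at 207 of 1574 single genes (13.2%, interval 11.6 to 14.9%), and these intervals overlap. At 103 of the 142 pairs the 2 summits were nearer different starts. Over the 142 pairs the 2 summits were a median of 204 bp apart (quartiles 201 and 213 bp), and at 127 pairs up to 250 bp apart. No 2 summits of the IDR list were closer than 199 bp, so most of these spacings lay near that limit and nearer neighbours could not be seen. Whether the 2 summits mark separate sites was not tested. Both summits were also in the relaxed list of replicate 1 at 133 pairs, of replicate 2 at 113 and of replicate 3 at 114.

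Head-to-head peaks were slightly stronger than single-gene peaks. Their median signal was 202 (quartiles 146 and 308, highest 1736), against 177 (134 and 260, highest 2033) for single-gene peaks. Median relative signal was 1.18, 1.14 and 1.07 at head-to-head peaks in replicates 1, 2 and 3, against 1.05, 1.05 and 0.945 at single-gene peaks. The ratio averaged 1.11 ± 0.0242 (SD, n = 3) and was above 1 in 3 of 3 replicates, at the smallest exact p of 0.25. The quartile ranges of the classes overlapped widely in every replicate. Head-to-head peaks made up 36.2% of the 437 strongest IDR peaks and 13.5% of the 437 weakest.

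They were also more often among the strongest peaks of every replicate. A summit within 100 bp was in the top lists of all 3 replicates for 677 head-to-head peaks (60.1%, interval 57.2 to 62.9%) and 931 single-gene peaks (51.6%, interval 49.3 to 53.9%), where the share of all IDR peaks was 51.3%. The 60 other promoter peaks of several genes had 61.7% (interval 49.0 to 72.9%). In the relaxed lists, which do not depend on such a cut, 97.2%, 93.1% and 94.5% of head-to-head peaks were found in replicates 1, 2 and 3, against 96.8%, 93.7% and 92.9% of single-gene peaks. Across head-to-head peaks, Spearman's rho of signal was 0.783 between replicates 1 and 2 (1022 peaks), 0.677 between 1 and 3 (1037 peaks) and 0.656 between 2 and 3 (997 peaks). The single-gene values were 0.698, 0.602 and 0.529. Peaks of 1 library are not independent of each other, so these are descriptions.

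The motif content of the summits differed between the classes, as 7 words showed that were searched for, on either strand, up to 50 bp from each summit. TATCGATA was at 120 head-to-head summits (10.6%, interval 8.98 to 12.6%) and 81 single-gene summits (4.49%, interval 3.63 to 5.55%), where 4.71% of all IDR summits had it. In the top lists it was at 9.84%, 7.69% and 8.94% of head-to-head summits, against 4.36%, 4.54% and 4.86% of single-gene summits. The groups did not overlap, and the difference was 4.24 ± 1.18 percentage points (SD, n = 3, exact p = 0.25). GGTCACAC was at 6.74% of head-to-head and 4.38% of single-gene summits, with 3.68% over all IDR summits, and was higher in 3 of 3 top lists.

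GAGAGAG, the repeat bound by GAGA factor, was at 6 head-to-head summits (0.532%, interval 0.244 to 1.16%) and 56 single-gene summits (3.10%, interval 2.40 to 4.01%), against 2.36% of all IDR summits. The top lists gave 0.532%, 0.370% and 0.476% at head-to-head summits and 3.31%, 3.29% and 2.62% at single-gene summits, again without overlap (exact p = 0.25). The E-box variants CACGCG (3.90% and 7.65%, with 5.28% over all IDR summits) and CATGTG (5.15% and 8.37%, with 7.41%) were lower at head-to-head than at single-gene summits, also in 3 of 3 top lists. CAGGTAG, bound by the early embryonic factor Zelda, was rare in both, at 0.532% and 0.333%, with 0.480% over all IDR summits. The 101 bp windows also differed in base composition, with a median of 40.6% G and C at head-to-head and 44.6% at single-gene summits, and its part in the word shares was not tested.

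The canonical E-box did not differ beyond the spread. CACGTG was at 77 head-to-head summits (6.83%, interval 5.50 to 8.46%) and 126 single-gene summits (6.98%, interval 5.90 to 8.25%), where 6.02% of all IDR summits had it. The difference in the top lists was -0.453 ± 1.06 percentage points (SD, n = 3, exact p = 0.75), and head-to-head summits were the higher in 1 of 3. Its sign also changed with the promoter window.

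**Figure D3:**
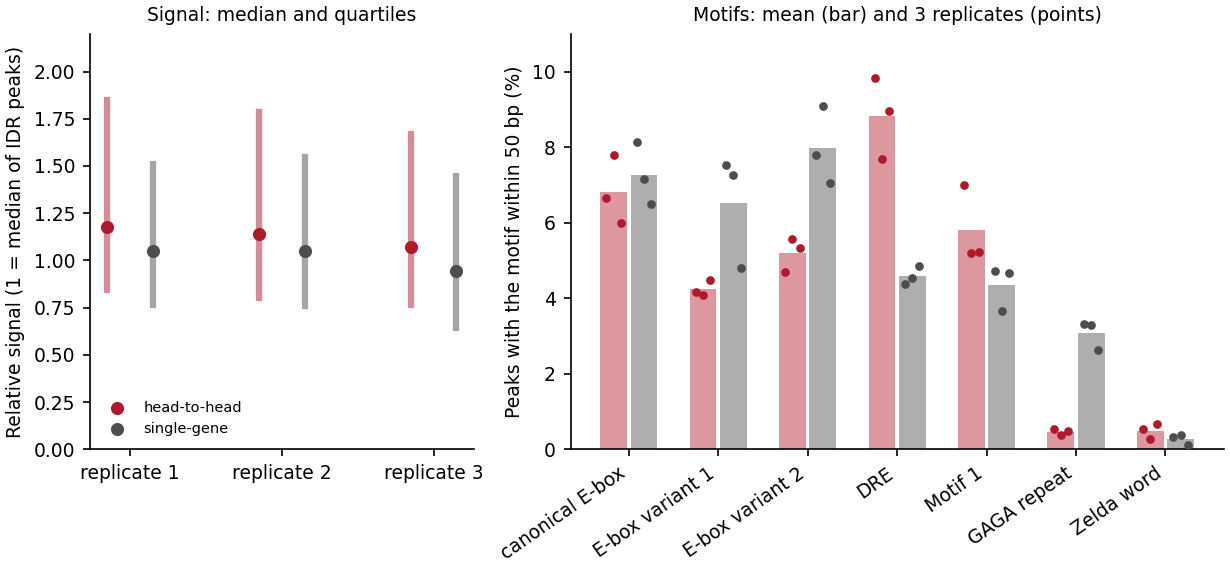
Left, relative signal (1 is the median IDR peak) of head-to-head and single-gene peaks in each replicate, with dots at the medians and bars over the quartiles. Right, share of summits in each replicate's top list with a motif within 50 bp, bars at the mean of 3 replicates and points at each; E-box variants 1 and 2 are CACGCG and CATGTG, and the DRE stands at 8.82% against 4.59%.

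The DRE difference was smaller in windows placed by gene starts. In windows of the same width centred 25 bp upstream of gene starts, TATCGATA was at 286 of 1963 genes of these pairs (14.6%, interval 13.1 to 16.2%) and 122 of 1096 bound lone genes (11.1%, interval 9.40 to 13.1%). It was at 8.76% of unbound paired genes, 3.28% of unbound lone genes and 6.86% of all protein-coding genes. GGTCACAC was at 10.5% of both the genes of these pairs and the bound lone genes, and at 5.32% of all genes. GAGAGAG differed in the same direction in these windows, with 0.866% of the genes of these pairs and 4.65% of bound lone genes.

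The E-box and the DRE took different places at these promoters. TATCGATA lay between the 2 starts at 93 of 120 head-to-head peaks (77.5%, interval 69.2 to 84.1%), and at 76.3 ± 5.58% over the top lists (SD, n = 3). CACGTG lay between them at 18 of 77 (23.4%, interval 15.3 to 33.95%), and at 24.1 ± 2.78% over the top lists. The lowest top-list share for TATCGATA was 69.9% and the highest for CACGTG 27.0%, so the words did not overlap. Of the bases searched, 65.9% at the peaks with TATCGATA and 41.7% at those with CACGTG were between the starts.

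Measured from the nearest start, with negative values upstream, TATCGATA had a median position of -19 bp (quartiles -38.75 and -6 bp), and CACGTG of 31.5 bp (quartiles -3.5 and 36.5 bp). CACGTG was centred 20 to 45 bp downstream at 39 of 77 head-to-head peaks (50.6%, interval 39.7 to 61.5%) and at 43 of 126 single-gene peaks (34.1%, interval 26.4 to 42.8%), a band chosen after the values were seen. In the annotation, 60 of the 77 words (77.9%) lay in a 5′ UTR, as in RpL7 and Nop56 above, against 76 of 126 (60.3%) at single-gene peaks. Both words were within 50 bp at 10 head-to-head peaks, so TATCGATA was at 13.0% of those with CACGTG and at 10.5% of those without it. Among the 10 was Kots/Orc2, where Orc2 codes for a subunit of the origin recognition complex.

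**Figure D4:**
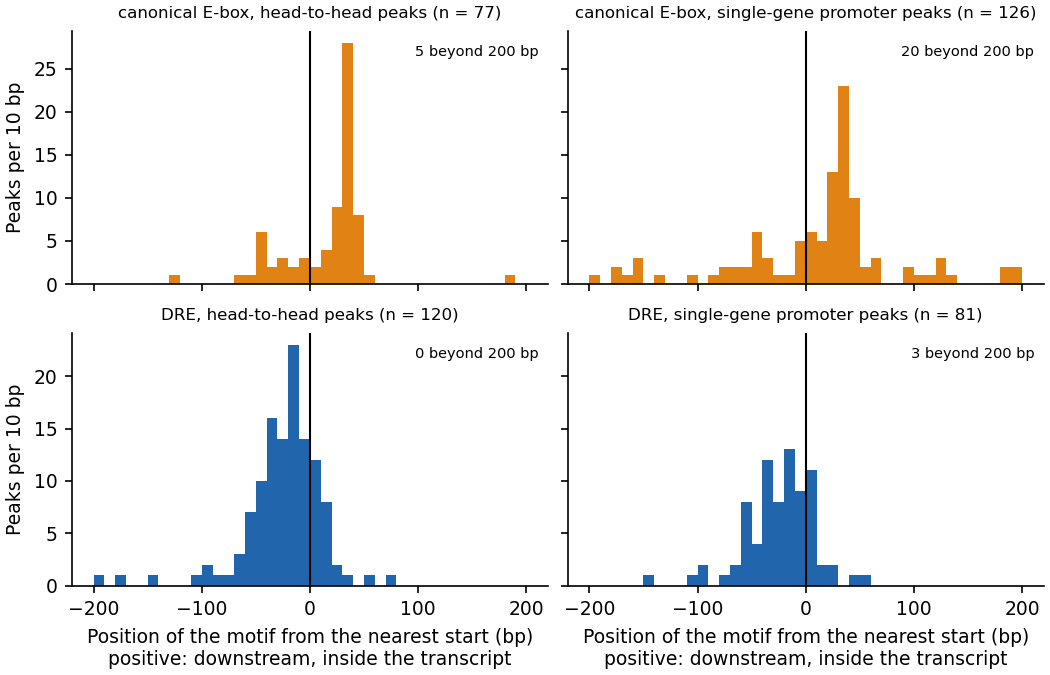
Position of the canonical E-box (CACGTG, top) and the DRE (TATCGATA, bottom) from the nearest start, in 10 bp bins and in the direction of transcription, for head-to-head peaks (left) and single-gene peaks (right). The line at 0 is the start, and the motif nearest to the summit is counted once per peak; medians at head-to-head peaks are 31.5 bp downstream for the E-box and 19 bp upstream for the DRE.

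Peaks with an E-box were the stronger ones. Median relative signal of head-to-head peaks with CACGTG was 2.10, 2.27 and 1.47 in replicates 1, 2 and 3 (mean 1.94 ± 0.422, SD, n = 3). Without it the values were 1.15, 1.10 and 1.04 (1.09 ± 0.0531), so the sets did not overlap, and replicate 3 showed the smallest gap. Single-gene peaks gave 1.88 ± 0.443 with CACGTG and 0.986 ± 0.0558 without it. Head-to-head peaks with TATCGATA averaged 1.16 ± 0.102 and those without it 1.12 ± 0.0489, a difference within the spread.

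The strongest head-to-head peak was that of Fib (FBgn0003062), fibrillarin, the methyltransferase of box C/D nucleolar particles, and CG3085, on 2R. Its signal was 746, 529 and 492 in replicates 1, 2 and 3, or a relative signal of 11.2, 9.96 and 7.64 (9.61 ± 1.83, SD, n = 3), and its summit lay 15 bp from the Fib start. Of the 12 strongest peaks that were in all 3 top lists, 5 had a cytosolic ribosomal protein gene at the nearer start: RpL7, RpL14, RpL41, RpL34b and RpS27. RpL14 (FBgn0017579) shares its promoter with Nelf-E, a subunit of the factor that pauses RNA polymerase II, and its peak had a relative signal of 9.58, 8.59 and 6.39, with the summit 16 bp from the RpL14 start. RpL41, whose neighbour NaCP60E codes for a voltage-gated sodium channel, had 9.49, 7.80 and 6.29. Replicate 3 was the lowest at these 3 peaks.

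At other strong pairs replicate 3 was the highest. Art3 (FBgn0038306), an arginine methyltransferase gene, and mRpS10, of the mitochondrial small ribosomal subunit, had a relative signal of 8.19, 8.06 and 10.99 at their shared peak. Chro, which codes for the interband chromatin protein Chromator, and Ssl1, of the repair and transcription factor TFIIH, had 5.84, 6.02 and 10.8. Tcs5/CHMP2B had 4.69, 4.49 and 8.70, and Atat/Shc, a tubulin acetyltransferase and a receptor adaptor, had 4.74, 4.14 and 8.39. None of these 4 had CACGTG within 50 bp of the summit. Of the 50 strongest head-to-head peaks found in every replicate, 9 had CACGTG, and replicate 3 was the lowest at 8 of them and the highest at 0 of them. Of the 41 without it, replicate 3 was the lowest at 24 and the highest at 13.

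**Figure D5:**
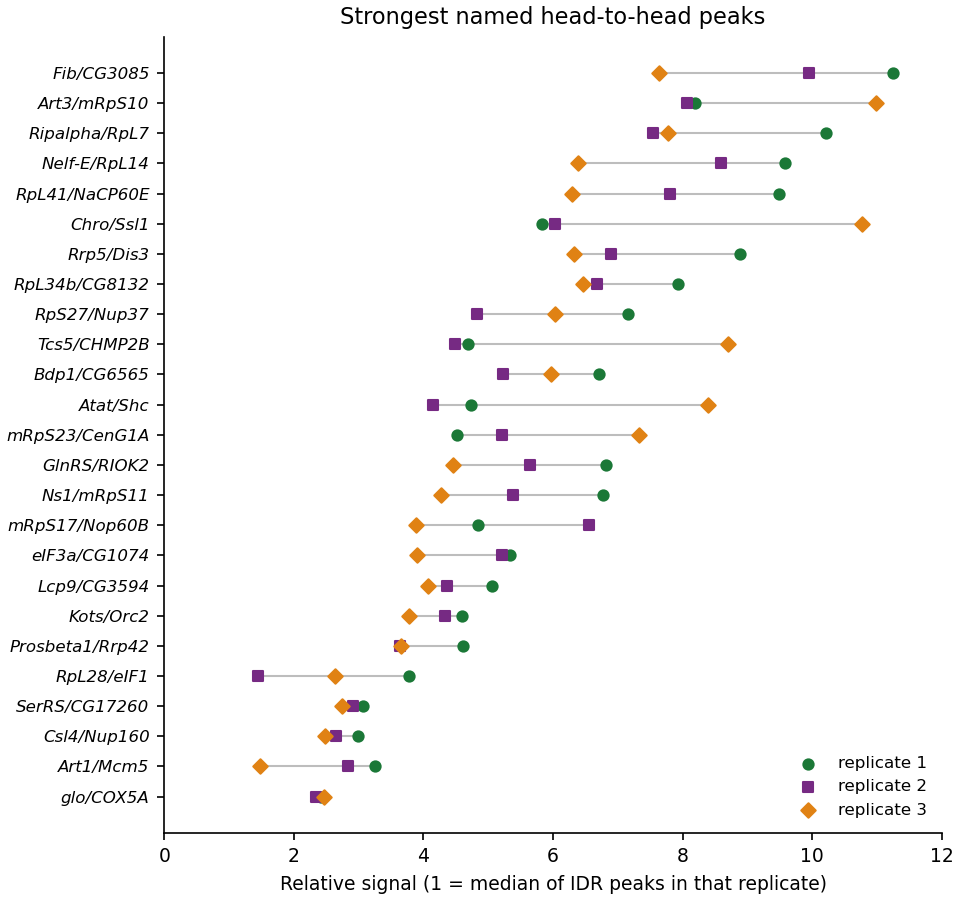
Relative signal in each replicate (1 is the median IDR peak of that replicate) at 25 named head-to-head peaks, strongest at the top. Green circles, purple squares and orange diamonds are replicates 1, 2 and 3. Replicate 3 is highest at Art3/mRpS10, Chro/Ssl1, Tcs5/CHMP2B, Atat/Shc, mRpS23/CenG1A and, by little, glo/COX5A. It is lowest at Fib/CG3085, Nelf-E/RpL14 and RpL41/NaCP60E, among others.

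Growth genes were common in these pairs, by 13 lists of 618 genes with housekeeping and growth roles that were defined by symbol with earlier results of these data known. Of 36 ribosome assembly and nucleolar genes, all 36 were bound and 24 (66.7%) lay at a head-to-head peak, against 14.1% of all protein-coding genes. Among 88 cytosolic ribosomal protein genes 82 were bound and 30 (34.1%) were at such a peak. Of 75 mitochondrial ribosomal protein genes 41 were bound, and 37 of those 41 (90.2%) were bound at a head-to-head peak, compared with 54.2% of all bound genes. These lists are themselves rich in divergent genes: 75%, 60.2% and 78.7% of the 3 lists had a head-to-head partner within 1000 bp, against 36.2% of all protein-coding genes. Among the genes with such a partner, a head-to-head peak was at 24 of 27 ribosome assembly genes (88.9%), 30 of 53 cytosolic ribosomal protein genes (56.6%) and 37 of 59 mitochondrial ones (62.7%), against 38.9% of all genes with a partner.

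The remaining growth lists covered further machinery. A head-to-head peak was at 20 of 36 genes for the RNA exosome and nuclear pore (55.6%), 19 of 35 spliceosome genes (54.3%), 15 of 33 aminoacyl-tRNA synthetase genes (45.5%) and 14 of 33 genes for RNA polymerases and their factors (42.4%). It was at 15 of 49 replication and cell cycle genes (30.6%), 22 of 78 oxidative phosphorylation genes (28.2%) and 14 of 60 translation factor genes (23.3%). Proteasome subunits had 11 of 48 (22.9%), chaperonins and chaperones 6 of 27 (22.2%) and mitochondrial import and genome genes 4 of 21 (19.0%). These shares compare with 14.1% of all protein-coding genes. Counted over genes with a head-to-head partner alone, where 38.9% of all such genes were at a head-to-head peak, several were close to that background. They were 42.3% for the proteasome (11 of 26), 40% for chaperones (6 of 15), 44.4% for mitochondrial import (4 of 9) and 46.7% for translation factors (14 of 30). The others ranged from 51.7% for replication and cell cycle genes to 71.4% for the RNA exosome and nuclear pore. The intervals of replication and cell cycle genes (34.4 to 68.6%) and oxidative phosphorylation genes (38.7 to 67.9%) also took in the background of 38.9%.

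Genes with tissue-restricted use were rarely there. A head-to-head peak was at 3 of 230 chemosensory receptor genes (1.30%) and 1 of 121 cuticle protein genes (0.826%). The share over all protein-coding genes was 14.1%. Few of these genes had a head-to-head partner within 1000 bp: 37 (16.1%) and 13 (10.7%), against 36.2% of all protein-coding genes. Among those with a partner, 8.11% (interval 2.80 to 21.3%) and 7.69% (interval 1.37 to 33.3%) were at such a peak. That share was 38.9% over all genes with a partner. At the 4 listed genes with such a peak, the summit was nearer the other gene of the pair. At Gr63a, a carbon dioxide receptor gene, and Lamtor4, of the lysosomal Ragulator complex, the summit was 42 bp from the Lamtor4 start and 255 bp from that of Gr63a, with a relative signal of 1.10, 1.11 and 0.487. Lcp9/CG3594 was strong, with 5.05, 4.36 and 4.07, and its summit, with a CACGTG nearby, was 24 bp from the CG3594 start and 465 bp from that of the cuticle gene Lcp9.

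The nearer gene of the pair was counted by list. Over 246 peaks with 1 growth-list gene in the pair, the summit was nearer that gene in 159 (64.6%, interval 58.5 to 70.3%). The replicates' own summits gave 64.2%, 66.8% and 66.4% (65.8 ± 1.42%, SD, n = 3). The counts by list also take in peaks whose other gene is in a different list. By list, the summit was nearer the cytosolic ribosomal protein gene in 33 of 39 peaks, the spliceosome gene in 17 of 23 and the ribosome assembly gene in 20 of 31. It was nearer the mitochondrial ribosomal protein gene in 13 of 41 peaks. At mRpS23/CenG1A, for example, the summit was 366 bp from the mRpS23 start and 126 bp from that of CenG1A, which codes for an Arf GTPase-activating protein. Differences between lists have no test here, and the lists were read with these results known.

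Pairs of 2 growth genes had the highest median signal. Median relative signal at the 14 peaks (13 pairs) with both genes in the lists was 4.19, 3.64 and 3.62 in replicates 1 to 3. It was 1.39, 1.38 and 1.16 at the 246 peaks with 1 listed gene, and 1.12, 1.08 and 1.03 at the 867 with none. The 3 sets did not overlap across replicates, although single peaks ranged widely. Signals reached 1371 with both genes listed, 1736 with 1 and 1388 with none, and the lowest with both was 124.

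The 3 strongest pairs with both genes in the lists joined a gene of ribosome assembly or a ribosomal protein with one of another list. Rrp5, needed to process ribosomal RNA, and Dis3, the exosome's catalytic subunit, start 117 bp apart, and the summit between them had a relative signal of 8.88, 6.89 and 6.32. RpS27/Nup37 had 7.16, 4.82 and 6.03, with the summit 13 bp from the ribosomal protein gene. GlnRS, the glutaminyl-tRNA synthetase, and RIOK2, a kinase of small-subunit maturation, had 6.81, 5.65 and 4.46. The values were above 4 in every replicate at these 3 pairs.

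Pairs that joined the nucleolus with the mitochondrial ribosome were among the strong ones. Ns1, a nucleostemin GTPase gene, and mRpS11 had 6.77, 5.38 and 4.27. At mRpS17/Nop60B, where Nop60B codes for the pseudouridine synthase dyskerin, the summit was 24 bp from the Nop60B start and 460 bp from that of mRpS17. It had 4.84, 6.56 and 3.89, with CACGTG nearby. Replicate 3 was the lowest at both. Prosbeta1/Rrp42, a proteasome and an exosome subunit, had 4.61, 3.64 and 3.65 with TATCGATA near the summit.

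The other such pairs were weaker. RpL28/eIF1 had 3.78, 1.44 and 2.64, with replicate 2 well below the others. Csl4/Nup160 had 2.98, 2.66 and 2.48, and replicates were close there. Pfdn2/Noc1 (signal 193), mRpL55/ATPsynD (191), Cdk1/mRpS7 (163) and CycC/UQCR-C1 (124) were near or below the median signal of all head-to-head peaks. The Cdk1/mRpS7 peak was found in the relaxed list of replicate 1 only.

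Beyond these, the strongest head-to-head peaks of the other lists spanned a wide range. Bdp1, of the RNA polymerase III factor TFIIIB, had 6.71, 5.23 and 5.97 at its pair with CG6565. The translation initiation gene eIF3a had 5.33, 5.21 and 3.91 at its pair with CG1074, and Orc2 had 4.596, 4.34 and 3.78. These 3 peaks were far above the typical IDR peak in each replicate. The seryl-tRNA synthetase gene SerRS had 3.07, 2.91 and 2.74. The helicase gene Mcm5, paired with Art1, had 3.26, 2.84 and 1.48. That summit was 24 bp from the Art1 start and 274 bp from that of Mcm5. The respiratory gene COX5A, paired with glo, had 2.41, 2.35 and 2.46. The splicing gene Sf3b2 had 2.64, 2.39 and 1.89, and the chaperonin genes CCT7 and CCT4 had 2.46, 2.59 and 1.87 and 2.503, 2.38 and 1.25. Tim10, a chaperone of mitochondrial import, had 2.09, 1.61 and 1.34. Of these 7, COX5A had the smallest spread and Mcm5 was the most uneven, with replicate 3 low.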

How the data were processed

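Embryo chromatin from 3 replicates of 1 group was analysed from peak lists of the dm6 genome. Signal values are the peak caller's own score and −log10 q values its significance, both as deposited by the authors; the latter were only inspected. Per the labels' protocols chromatin was sonicated. The aligner, caller and IDR threshold used were not given in the sources used here. Summits came from the deposited offsets, genes from Ensembl release 115 (BDGP6.54) and sequences from the RefSeq dm6 genome, with python 3.11.15, numpy 2.4.6 and scipy 1.17.1. No per-sample column was left unused (0). All starts of a protein-coding gene counted, and a replicate's summit matched an IDR summit within 100 bp. Intervals are 95% Wilson intervals over peaks or genes and cover counting error only. Peak or gene classes were compared within each replicate, and their differences over the 3 replicates were tested by exact two-sided sign-flip permutation tests. Words were searched on both strands of the 101 bp around each summit. Differences and shares over replicates used the 4371 strongest peaks of each list. The steps were tested on simulated data, where 9 known quantities were recovered within 5%.

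Members and gene lists were chosen with earlier results of these data known, and patterns that took in genes of other functions were trimmed when the annotation was read. Genes named are those of the 12 strongest head-to-head peaks in all 3 top lists, of the 2 strongest head-to-head peaks of each list, and of pairs with both genes in the lists, with the sequences and edge pairs chosen by rule. Of the pairs named by this rule, 1 is not reported here. The 4 UTR sites were added after their values were seen. Printed gaps and UTR sites leave out arm 2R, and printed gaps leave out 2 more pairs because an annotated transcript covers bases between the starts.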

Additional observations from a re-analysis of the deposited data

How the results depend on the processing

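Alternatives were other promoter windows, outermost starts, the upper 50% of peaks by signal, other word and matching distances, other comparison peaks and leaving out each replicate. Restricting to the strongest peak of each pair, or to summits within 100 bp of a start, was chosen after seeing the data. The signal ratio stayed above 1, and the TATCGATA and bound-share differences above 0, in all of those run; the other 5 words were not rerun. With promoter windows of 250 and 1000 bp, the head-to-head share of promoter peaks was 26.4% and 45.5%, and it was 41.2% in the upper 50% and 38.8 to 40.9% when a replicate was left out. The signal ratio was 1.15 at 250 bp, 1.08 in the upper 50%, 1.14 with the signal of the IDR list, 1.15 with the strongest peak of each pair, 1.14 within 100 bp of a start and 1.10 to 1.13 without a replicate. The CACGTG difference of -0.152 points was -2.14 at 250 bp, 1.51 at 1000 bp, 3.50 against other promoter peaks of several genes and -1.33 within 100 bp of a start, so it has no settled direction; without a replicate it was -0.44 to -0.171. The TATCGATA difference of 6.16 points was 2.39 with words within 25 bp, 7.45 within 100 bp, 8.98 against other promoter peaks of several genes, and 6.24 to 6.90 without a replicate. The share of summits between the starts was 62.1% at 1000 bp, 62.7% with outermost starts, and 67.8 to 70.4% without a replicate. The share in all 3 top lists was 63.6% at 250 bp, 88.4% in the upper 50%, 42.4% and 69.3% for matching within 50 and 200 bp, and 63.6% with the strongest peak of each pair. Requiring only the other 2 lists gave 65.7 to 71.8%. The difference in bound share of 33.6 points was 31.8 at 1000 bp, 32.0 with outermost starts, 21.8 in the upper 50%, 16.2 with each peak given to its nearest start, 37.1 in the relaxed pooled list, and 24.9 to 27.2 without a replicate. The cause of these shifts was not tested; the upper 50% or a required match leaves fewer peaks by construction. No paired analysis was possible because all samples form 1 group, so no replicate numbers are shared between groups; peak classes were compared within each replicate. Depth is unknown, so a pair without a peak is not shown to be unbound.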

Other observations

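Bound and unbound pairs were also compared by the DNA between their starts. Among head-to-head pairs with a gap of 30 to 300 bp, CACGTG lay between the starts of 17 of 659 pairs with a shared summit (2.58%, 95% Wilson interval 1.62 to 4.09%) and 2 of 472 pairs with neither gene bound (0.424%, interval 0.116 to 1.53%). TATCGATA lay there in 117 of the pairs with a shared summit (17.8%, interval 15.0 to 20.9%) and 54 of the pairs with neither gene bound (11.4%, interval 8.88 to 14.6%). The gaps had a median length of 155 bp in the pairs with a shared summit and 183 bp in the pairs with neither gene bound. In the windows upstream of outermost starts, GAGAGAG was at 0.866% of genes at head-to-head peaks and 2.59% of unbound paired genes, a contrast within divergent genes. These are values without a test.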
